A study of Mus musculus with 2 samples.

Results

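Long intergenic non-coding RNAs (lincRNAs) that were expressed in the aged mouse heart are described here, gene by gene. A gene was taken as a lincRNA gene when at least 1 of its transcripts was typed lincRNA and none was typed protein_coding in the deposited transcript tables, and as expressed when it stood at 2 TPM or more in both libraries, TPM being the share of all transcripts corrected for their length. Rmrp, H19, Meg3, Rian, Mirg, Airn and Kcnq1ot1 were left out. This gave 88 genes of the 6048 lincRNA genes, out of 55536 annotated genes in all. Because the members were chosen by their level, levels are given as a description and were not tested.

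The study sequenced total RNA from the heart of male B6CASTF1/J mice, an F1 hybrid of C57BL/6J with CAST/EiJ, aged 18 to 20 months. There were 2 libraries, biological replicates 1 and 2, each made from 300 ng of RNA with ERCC spike-in RNAs and a stranded, ribosomal RNA-reduced protocol. The labels give the replicates different biosamples but one donor identifier, so whether they came from separate animals is uncertain and the spread between them may be technical. Both belong to 1 group with no treatment or genotype contrast, so nothing could be compared between conditions. Annotated genes received 38858481 counts in replicate 1 and 37281459 in replicate 2.

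lincRNAs are made by RNA polymerase II from their own genes, and most are capped, spliced and polyadenylated like messenger RNAs without being translated into a known protein. Some stay in the nucleus and build or occupy nuclear bodies, some bind proteins or microRNAs in the cytoplasm, and some matter chiefly as carriers of small RNAs cut from their introns. In the heart, members of the class have been studied in growth, stress and vessel formation, while for most of them no function is known.

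The label was checked against the annotations. GENCODE M21 gives 70 of the 88 genes the gene type lincRNA and 18 the type processed_transcript. By Ensembl identifier, or else by symbol, 56 genes had a RefSeq entry. Of these, 49 were long non-coding RNAs there, 6 were protein-coding (1810058I24Rik, Lsmem2, Tmem250-ps, Gm46430, Gm39469 and Gm5165) and Gm10076 was a pseudogene. Synonyms were not searched in this count, so Gm42418, which RefSeq gives as a synonym of the pseudogene Rn18s-rs5, is not among the 56. The bodies of 16 genes overlapped a protein-coding gene, 4 on the same strand and 12 on the opposite one, so these are not intergenic in the strict sense. The libraries were stranded, but whether the counting used the strand is not given in the sources used here, and reads of a gene and its antisense partner cannot then be told apart.

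Few lincRNA genes were expressed at this minimum. Members were 1.46% of the lincRNA genes, whereas 43.3% of the 22015 nuclear protein-coding genes stood at 2 TPM or more in both libraries. Of the 6048 lincRNA genes, 4621 had 0 counts in both libraries, and 5342 were under 0.1 TPM in both. Another 23 reached 2 TPM in a single library, 9 in replicate 1 and 14 in replicate 2. The members held 97.4% of all lincRNA TPM in replicate 1 and 96.1% in replicate 2. Just inside the minimum were Gm27252 at 2.09 and 2.16 TPM, 2310039L15Rik at 3.54 and 2.14 TPM, and Gm5165 at 2.30 and 2.23 TPM in replicates 1 and 2. Just outside were Gm36372 at 1.96 and 2.59 TPM, Gm8066 at 2.60 and 1.94 TPM, and 4632415L05Rik at 2.28 and 1.91 TPM. None of the 88 members lies on chromosome X or Y, where 647 lincRNA genes were annotated and the highest, 2810403D21Rik, had a mean of 1.03 TPM.

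Levels among the members ran over more than 3 orders of magnitude, from a mean of 2.13 to 5584 TPM. The median mean level was 4.99 TPM, against 10.4 TPM for the 9541 nuclear protein-coding genes at the same minimum. In all, 44 members had means under 5 TPM, 21 reached 10 TPM, 15 reached 20 TPM and 5 reached 100 TPM. The counts behind a level ran from 24 to 540555 per library, with a median mean count of 153, so the low members rest on few reads. Between the replicates, the SD was a median of 10.5% of the mean over the members and 8.91% over the protein-coding genes.

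**Figure D1:**
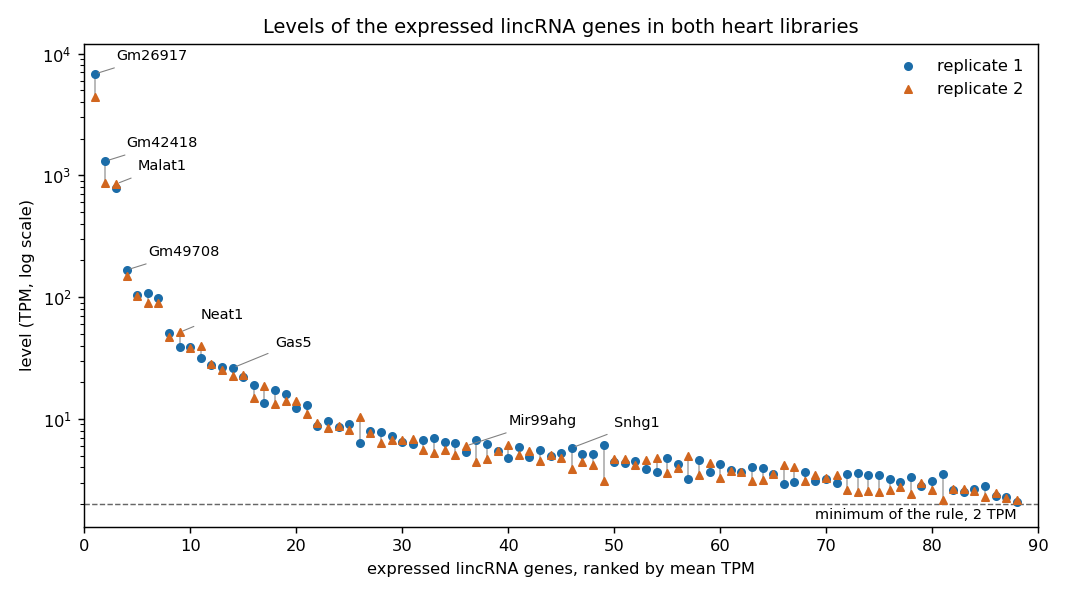
Level in TPM (log scale) of each of the 88 expressed lincRNA genes, ranked by mean, with replicate 1 as circles, replicate 2 as triangles and a line joining both. Gm26917, Gm42418 and Malat1 stand far above the rest, and 44 genes have means under 5 TPM.

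The summed level of the members was 1.52% of nuclear TPM in replicate 1 and 1.19% in replicate 2, a mean of 1.353% ± 0.234 (SD, n = 2). Neighbouring genes on chromosome 17 decided that sum: Gm26917 and Gm42418 together held 80.7% of it in replicate 1 and 73.0% in replicate 2. Without them the members held 0.293% and 0.321% of nuclear TPM, a mean of 0.307% ± 0.0194 (SD, n = 2). With them the share was larger in replicate 1, and without them it was larger in replicate 2.

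Gm26917 (ENSMUSG00000097971.3, chr17:39843013-39846341 in mm10, plus strand) stood at 6803 TPM in replicate 1 and 4366 TPM in replicate 2. Gm42418 (ENSMUSG00000098178.1, chr17:39846958-39848788, plus strand) stood at 1309 and 873 TPM. Both were higher in replicate 1. RefSeq gives Gm42418 as a synonym of Rn18s-rs5, a pseudogene related to 18S ribosomal RNA, whose span chr17:39846354-39848202 covers 1245 of the 1831 bases of Gm42418 and starts 12 bases after the end of Gm26917. The GC content of the leading transcripts was 69.1% for Gm26917 and 60.2% for Gm42418, against a median of 47.5% over the members. Whether the reads of either gene came from ribosomal RNA was not tested.

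Malat1 led the remaining members. It is a long nuclear RNA of nuclear speckles, abundant in most tissues. It stood at 791 TPM in replicate 1 and 850 in replicate 2 (821 ± 41.8, SD, n = 2; ENSMUSG00000092341.3, chr19:5795690-5802672, minus strand). Neat1, the RNA scaffold of paraspeckles, lies close to it on the same strand (ENSMUSG00000092274.3, chr19:5824708-5845478). Neat1 was at 39.2 TPM in replicate 1 and 51.4 in replicate 2. Malat1 thus had a level many times that of its neighbour per unit of length. Bulk tissue was measured, so a lower level from fewer expressing cells and from less RNA per cell cannot be told apart here or below.

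From a list of 21 widely expressed and nuclear-body lncRNAs, 18 were found by symbol. Of these, 12 met the lincRNA rule and 6 of the 12 were members: Gm26917, Malat1, Neat1, 2900097C17Rik, Lncpint and Dleu2. Oip5os1, listed but not found by symbol, is another name of 1700020I14Rik, a member that is not in this count. Lncpint, an RNA described as a target of p53, was at 9.08 and 8.05 TPM. Dleu2 was at 4.56 and 3.49 TPM. Among those under the minimum, Crnde was at 1.71 and 1.65 TPM, Jpx at 0.84 and 0.89 and Pvt1 at 0.51 and 0.42.

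1700020I14Rik and 2900097C17Rik stood at nearly equal levels and are members whose sequences are well known as binding platforms. 1700020I14Rik (ENSMUSG00000085438.1, chr2:119594297-119607502, plus strand), also known as Cyrano, was at 103 TPM in both libraries (103.36 and 102.65). Cyrano is known for a conserved site with extended pairing to the microRNA miR-7, which leads to the decay of miR-7. 2900097C17Rik (ENSMUSG00000102869.2, chr2:156388065-156392979, minus strand), the mouse counterpart of NORAD, was at 109 TPM in replicate 1 and 89.1 in replicate 2. NORAD is known for repeated binding elements of the Pumilio proteins, which repress messenger RNAs, and these elements are shown here because they set the gene apart by its sequence. Both sites were read from the leading transcripts in GENCODE M21, 1700020I14Rik-202 (8300 bases, positions 2935 to 2959, chr2:119602137-119602161) and 2900097C17Rik-202 (4915 bases, positions 2436 to 2465, chr2:156390515-156390544), and the miRNA from RefSeq (GRCm38.p6). Capitals mark the bases that pair between miR-7a and the Cyrano site, and the Pumilio-type motif TGTANATA in 2900097C17Rik.
mmu-miR-7a-5p: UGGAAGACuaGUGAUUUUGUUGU
1700020I14Rik site: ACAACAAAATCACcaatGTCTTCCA
2900097C17Rik elements: ctatgcTGTATATAtTGTACATActggaca

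The Cyrano site pairs with 21 of the 23 bases of miR-7a, in runs of 8 and 13, around an unpaired stretch of 4 bases in the transcript. The seed match GTCTTCC, searched on the transcript strand only, occurred 2 times in this transcript. It was found in the leading transcripts of 12 of the 88 members (13.6%) and in 23.8% of 9536 protein-coding leading transcripts at 2 TPM or more, so a seed match alone was common. These shares are not corrected for length, and the leading transcripts had a median of 889 bases in members and 2609 in protein-coding genes. The run of 13 bases occurred in 1 member, Cyrano itself, and in 1 protein-coding leading transcript, that of Hnrnpul1, which was named after its match was seen. Mature miR-7 was not measured in these libraries' tables.

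The motif TGTANATA, searched on the transcript strand with overlapping matches allowed, occurred 11 times in 2900097C17Rik, or 2.24 times per kb. At least 1 match was found in 16 of the 88 members (18.2%) and in 25.8% of the protein-coding leading transcripts, which are longer, and these shares are likewise not corrected for length. Among the latter, a single transcript had as many, that of Lnpep with 12, also named after its count was seen. Gm7292 on chromosome 6 (chr6:117716342-117718868, plus strand) had 9. This gene shares sequence with 2900097C17Rik: 59.7% of the 100-base stretches of Gm7292 occurred in 2900097C17Rik, and 30.1% the other way round. Here and below, the stretches of a member are those of its leading transcript. Gm7292 was at 7.92 and 7.73 TPM, and the counts of both genes were fractional (512.4 in replicate 1 for Gm7292) because the quantification divided reads between entries. A motif match is a property of the sequence and shows no binding.

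The other members above 20 TPM have fewer known roles. Gm49708 was at 167 TPM in replicate 1 and 149 in replicate 2. 1810058I24Rik was at 98.8 and 88.8 TPM, and RefSeq lists it as protein-coding with the synonyms Stmp1 and Mm47, the former a small mitochondrial protein. AC132253.9 was at 50.6 and 47.4 TPM, and 47.2% of its 100-base stretches occurred in other genes, among them Gm49708. Gm44386, at 38.7 and 38.4 TPM, and Gm5532, at 31.6 and 39.8 TPM, share no such stretch with any other gene. Lsmem2 was at 27.7 and 28.4 TPM and Tmem250-ps at 26.5 and 25.2 TPM, both protein-coding in RefSeq. Of these, Gm5532 showed the widest gap between the libraries relative to its level, and Gm44386 and Lsmem2 each had nearly equal TPM in both libraries. Under 20 TPM, 2210408F21Rik followed at 19.1 and 15.0 TPM and AW112010 at 17.4 and 13.2 TPM.

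Gas5 was the highest of the snoRNA host members in the first deposited table, from which all levels so far were taken, while AC121821.1 was higher in the second, another quantification of the same libraries, at 71.8 and 54.0 TPM against 40.6 and 35.1 for Gas5. Such genes carry small nucleolar RNAs, which guide the modification of ribosomal RNA, in their introns, and the spliced exons are often short-lived. By annotation, 12 members held 35 genes typed snoRNA or scaRNA on their own strand, with 10 in Gas5, 8 in Snhg1 and 5 in Snhg12. Gas5 (chr1:161034422-161038539, plus strand) was at 26.2 TPM in replicate 1 and 22.6 in replicate 2. Snhg8 was at 7.84 and 6.34 TPM, Snhg20 at 6.47 and 5.59, AI506816 at 6.77 and 4.42, AA465934 at 6.28 and 4.72, and Snhg6 at 5.47 and 5.46. Lower still were Snhg1 at 5.78 and 3.90 TPM, Epb41l4aos at 3.93 and 3.15, Snhg12 at 3.51 and 2.63, AC121821.1 at 3.04 and 2.74, 1110038B12Rik at 3.33 and 2.42 and Snhg5 at 2.79 and 2.95. In the first table all but Snhg5 had the higher TPM in replicate 1, with Snhg6 nearly equal. In the second, Snhg1 and Snhg6 were higher in replicate 2 and Snhg5 in replicate 1. From a list of snoRNA host genes, 10 of 14 lincRNA genes found by symbol were members, the largest share of the 4 lncRNA lists. The tenth, 1810026B05Rik, at 13.1 and 11.0 TPM, holds no annotated snoRNA gene. Not members were Snhg18 at 1.33 and 1.01 TPM, Dancr at 1.02 and 1.31, Snhg17 at 0.53 and 0.71 and Snhg10 at 0.69 and 0.42.

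MicroRNA hosts were fewer: 5 members held 10 annotated miRNA genes on their own strand. Mir99ahg (chr16:77236317-77773427, plus strand), at 5.33 and 5.99 TPM, holds Mir99a, Mirlet7c-1 and Mir125b-2. Dleu2, the host of Mir16-1 and Mir15a in the region lost in many chronic lymphocytic leukaemias, was given above. A330023F24Rik, at 2.62 and 2.64 TPM, holds Mir29b-2 and Mir29c, of a family known to target collagen transcripts. Snhg20 holds Mir6516, and AC121821.1 holds Mir1949 and Gm49347. The mature sequences below, from RefSeq (GRCm38.p6), are shown for the hosts Mir99ahg, Dleu2 and A330023F24Rik with the seed, bases 2 to 8, in capitals. RefSeq held all 8 hosted miRNA genes that were looked up.
mmu-miR-99a-5p: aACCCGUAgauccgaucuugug
mmu-let-7c-5p: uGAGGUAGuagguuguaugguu
mmu-miR-125b-5p: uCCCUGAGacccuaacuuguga
mmu-miR-15a-5p: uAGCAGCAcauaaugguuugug
mmu-miR-16-5p: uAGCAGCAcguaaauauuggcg
mmu-miR-29b-3p: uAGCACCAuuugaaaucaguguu
mmu-miR-29c-3p: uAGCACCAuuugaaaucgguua

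The miRNAs from one host shared a seed in Dleu2 and in A330023F24Rik, and did not in Mir99ahg, whose 3 miRNAs carry 3 different seeds. In the RefSeq table of 1679 mature mouse miRNAs, the seed of miR-15a and miR-16 occurred in 10, that of miR-29b and miR-29c in 3, that of let-7c in 11, that of miR-125b in 5 and that of miR-99a in 3. Levels are those of the host transcripts, and the mature miRNAs were not measured here. From a list of miRNA host genes, 2 of 11 lincRNA genes found by symbol, Mir99ahg and Dleu2, were members. Cyrano, also listed, is the member 1700020I14Rik and is not in that count. Below the minimum in the first table was Carmn, the host of Mir143 and Mir145, at 1.69 and 1.64 TPM. So were Lncppara at 0.72 and 1.65, Ftx at 0.56 and 0.84 and Mir17hg at 0.18 and 0.15.

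In the first table, most lincRNAs with a literature in heart and muscle were under the minimum. Names were looked up by symbol, which found 30 of 45 on that list. Of 17 lincRNA genes found, 3 were members, Malat1, Neat1 and Gas5, all also expressed widely outside the heart. Norad and Oip5os1, listed but not found by symbol, are other names of the members 2900097C17Rik and 1700020I14Rik and are not in these counts. Bvht, required for cardiac commitment of stem cells in culture, missed the minimum in 1 library, at 3.56 TPM in replicate 1 and 1.5 in replicate 2. Dubr did too, at 2.35 and 1.83 TPM. Rmst was at 0.92 and 1.75 TPM, Miat at 0.10 and 0.02 and Trp53cor1 at 0.07 and 0.04. Fendrr, Hotair, Hottip, Pantr1 and Platr4 were listed at 0 in both libraries of the first table. The second table placed Bvht at 7.74 and 3.87 TPM, Dubr at 2.78 and 2.20, Carmn at 2.25 and 2.29 and Crnde at 2.38 and 2.55. These passed the minimum there, and the remaining non-member lincRNA genes of the list did not. Platr4 was at 0.26 and 0.30 TPM there. The best-known cardiac lncRNAs of other types, which the rule does not take, included Mhrt, antisense to Myh7, at 20.5 and 20.0 TPM and Hand2os1 at 65.8 and 46.2 TPM.

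Some members lie beside genes of heart development and function. Gm34030, at 6.96 and 5.26 TPM, lies 7059 bases from Hand2, a transcription factor of heart formation, which was at 33.5 TPM in replicate 1 and 19.9 in replicate 2. AC158549.1, at 6.23 and 6.83 TPM, lies 7916 bases from Adrb1, the main cardiac beta-adrenergic receptor, at 6.37 and 6.25 TPM. Gm43050, at 4.75 and 3.60 TPM, starts 748 bases from Tbx5, a T-box factor of the heart, at 7.45 and 7.76 TPM. Both members of these latter pairs had levels within a factor of about 2 of their neighbour, whereas Hand2 stood several-fold over Gm34030. On the opposite strand, 9330158H04Rik (chr6:36209620-36390191), at 22.2 and 22.9 TPM, overlaps Chrm2, the muscarinic receptor of the heart, at 30.03 and 29.67 TPM. Gm9899, at 3.78 and 3.73 TPM, overlaps the potassium channel gene Kcnk3 at 95.4 and 85.0 TPM in the same way. Prr33, at 3.65 and 4.34 TPM, overlaps Lsp1, a gene of leukocytes, at 9.94 and 7.47 TPM, and Tnnt3, the troponin T of fast skeletal muscle, at 0.15 and 0.18 TPM.

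Members lay nearer to protein-coding genes than the remaining lincRNA genes did. The median gap to the nearest protein-coding gene was 4103 bases for the members, 43447 bases for the other 5960 lincRNA genes and 2206 bases for the protein-coding genes at 2 TPM or more. That nearest gene was itself at 2 TPM or more in both libraries for 64 of the 88 members (72.7%), for 46.3% of the other lincRNA genes and for 56.9% of the protein-coding genes. The gap to the nearest protein-coding gene at that level was 8942 bases for the members and 114108 bases for the other lincRNA genes. Across the 88 members, the mean level and that of the nearest protein-coding gene had a Spearman rho of -0.24, a description over genes of the same libraries.

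**Figure D2:**
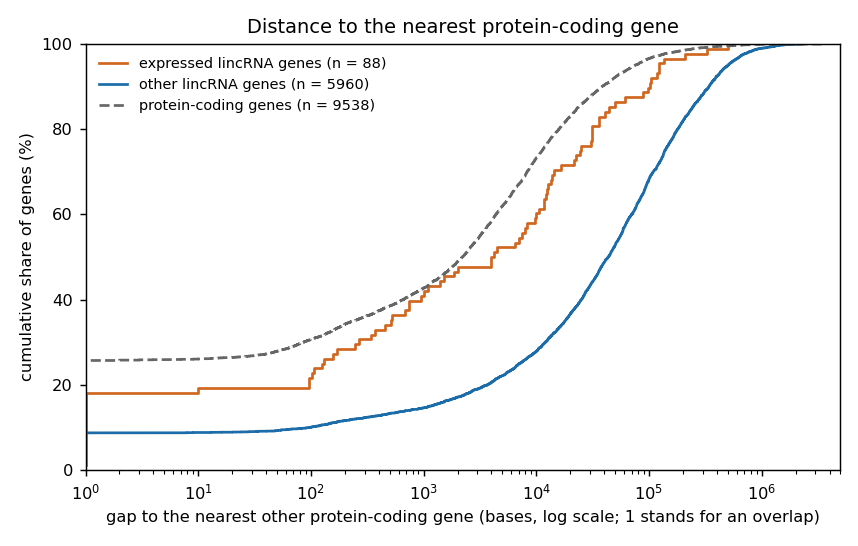
Cumulative share of genes (percent) by the gap in bases (log scale) to the nearest other protein-coding gene, for the expressed lincRNA genes, the other lincRNA genes and the protein-coding genes at 2 TPM or more. The curve of the 88 expressed lincRNA genes runs between the other curves, with medians of 4103, 43447 and 2206 bases in that order.

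A divergent protein-coding neighbour, transcribed away on the other strand from a start within 1000 bases, was found for 15 of the 88 members. The share was 4.35% among the other lincRNA genes and 10.7% among protein-coding genes. Starts in these pairs were 97 to 748 bases apart, and the neighbour had the higher mean level in 14 of the 15 pairs, by a median of 3.27-fold. The exception was A430046D13Rik, at 2.95 and 3.44 TPM, beside Myl6b at 1.33 and 1.29 TPM. The widest difference was in Gm12319, at 4.52 and 4.17 TPM, beside Eno3, the enolase of muscle, at 741 and 551 TPM. C030037D09Rik, at 3.44 and 2.58 TPM, lay beside Msi2 at 72.3 and 68.5 TPM. The highest member of a pair was Gm43672, at 8.66 and 8.77 TPM, beside Tbl1xr1 at 30.2 and 26.9 TPM. In 5031425E22Rik, at 5.84 and 5.05 TPM, the neighbour was the chromatin gene Kmt2e at 18.2 and 16.3 TPM. Snhg1 lay beside the amino acid transporter gene Slc3a2 at 17.1 and 14.6 TPM.

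**Figure D3:**
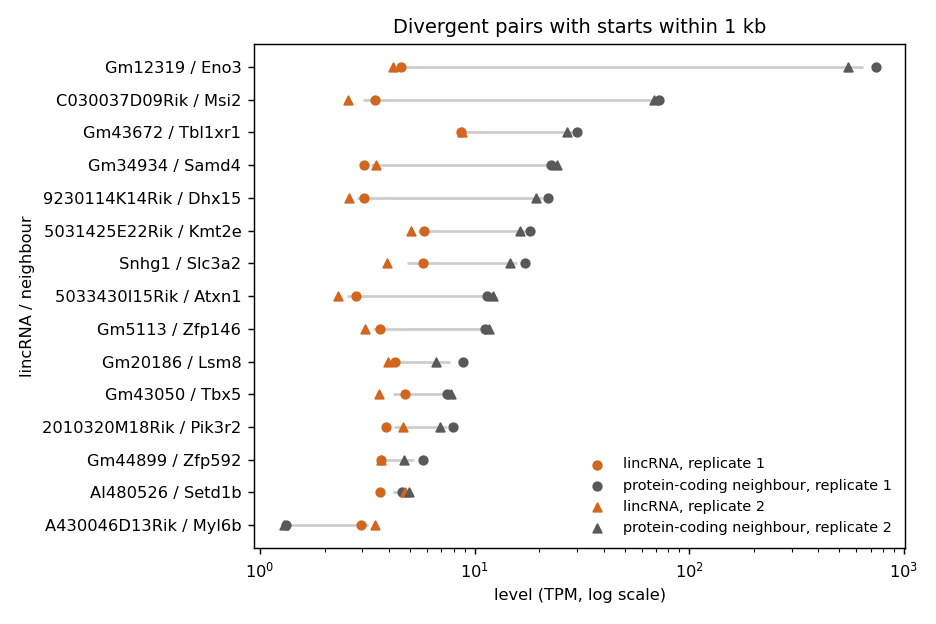
Levels in TPM (log scale) of the 15 divergent pairs, with the lincRNA in orange, the protein-coding neighbour in grey, replicate 1 as circles and replicate 2 as triangles. The neighbour has the higher mean in 14 of 15 pairs, and A430046D13Rik with Myl6b is the pair in the other order.

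By structure, members resembled the other lincRNA genes in some ways and differed in others. The leading transcript was the one with the highest level in a gene, or the longest where no transcript had a level. The latter held for most of the other lincRNA genes, since 4621 of them had 0 counts in both libraries. Its median length was 889 bases in members, 951 bases in the other lincRNA genes and 2609 bases in protein-coding genes. The median number of exons was 3 in both lincRNA sets and 9 in protein-coding genes. Leading transcripts of a single exon were found in 16 members (18.2%), in 6.80% of the other lincRNA genes and in 2.05% of protein-coding genes. The 3 highest members, Gm26917, Gm42418 and Malat1, were among these. Genes with 1 annotated transcript made up 30.7% of members and 72.6% of the other lincRNA genes. Among the 61 members with 2 or more transcripts, the leading one held a median of 69.0% of the gene's TPM, and over 50% in 45 of them. Malat1 was less concentrated, its leading transcript holding 44.3% in replicate 1 and 43.0% in replicate 2, and Neat1 more, at 86.6% and 85.5%.

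The libraries were then compared with each other, which tests these libraries and no condition. Counts were rounded, scaled by trimmed mean of M values (TMM), and tested per gene with an exact binomial test, Benjamini-Hochberg adjusted over the 12189 genes with a mean of 1 TPM or more. The test covers counting error only. Ratios are of scaled counts, so they can differ from the ratio of TPM values, which depends on the most abundant RNAs. At an adjusted p under 0.05, 18 of the 88 members differed, against 26.3% of all genes tested and 28.3% of the 10192 nuclear genes at 2 TPM or more in both libraries. At an unadjusted p under 0.05 there were 25. The share of members called followed their depth: 2 of 29 members with mean counts under 100 (7.8% of nuclear genes at that depth), 10 of 48 from 100 to 1000 (18.8%) and 6 of 11 at 1000 or more (44.3%). The members were thus called about as often as other genes in the same ranges of mean count. The sizes of the differences were less alike. The median absolute log2 ratio was 0.17 in members and 0.23 in nuclear genes with mean counts under 100. It was 0.19 and 0.12 from 100 to 1000, and 0.13 and 0.09 at 1000 or more. Depth was not matched within these ranges, and the median mean count of the members, 153, lies near the low end of the middle one. The part of depth in these differences of size was not tested.

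Of the 18, 15 were higher in replicate 2 and 3 were lower. Over all genes tested, 11.6% were higher and 14.7% lower, and over the nuclear genes at 2 TPM or more 12.2% were higher and 16.1% lower. The split depended on scaling, at 12 higher and 7 lower with total counts and 27 higher and 2 lower with ERCC spike-ins. The median log2 ratio of the members, replicate 2 over replicate 1, was 0.07 against -0.01 over all genes tested, and total-count scaling turned it to -0.02 against -0.10. It was 0.15 with ERCC spike-ins and 0.03 in the second deposited quantification.

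No member differed 2-fold or more. Over all genes tested 1.65% did, but members had to reach 2 TPM in both libraries, which limits how far they can differ. Of nuclear genes under the same minimum 0.608% did, a share too low for a set of this size to show fewer. Over all genes tested, 5.07% differed 1.5-fold or more. Such differences were seen in 275 of 10192 nuclear genes under the same minimum (2.7%) and in 5 of the 88 members. The largest among the members was in Gm11008, at 6.37 TPM in replicate 1 and 10.3 in replicate 2, with a log2 ratio of 0.82 (95% interval 0.47 to 1.20). This gene shares 93.1% of its 100-base stretches with other genes and was listed at 0 in both libraries in the second table. Next were 5430431A17Rik at 3.22 and 4.93 TPM (log2 ratio 0.70), Gm35330 at 2.90 and 4.15 TPM (0.68) and Gm49477 at 13.6 and 18.8 TPM (0.60). Gm31659, at 6.07 and 3.11 TPM, had the lowest log2 ratio of the members, -0.62 (95% interval -1.39 to 0.06), on 47 and 27 counts, and its adjusted p of the exact binomial test was 0.168. Snhg12 (-0.40), 2310039L15Rik (-0.35), 1110038B12Rik (-0.34) and Gm39469 (-0.31) also had low ratios and did not pass.

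The most abundant members were measured precisely enough for small differences to pass. Malat1 had a log2 ratio of 0.20 (95% interval 0.19 to 0.22), Neat1 of 0.54 (0.49 to 0.59) and 1700020I14Rik of 0.13 (0.10 to 0.16), all higher in replicate 2. 2900097C17Rik, at 0.02 (-0.02 to 0.06), did not pass, although its TPM was lower in replicate 2. Gm26917, at -0.41 (-0.41 to -0.40), and Gm42418, at -0.45 (-0.46 to -0.43), were lower in replicate 2, and with AI506816, at -0.32, made up the 3 lower members. The ratio of AI506816 was -0.24 under ERCC scaling and -0.03 in the second table, and it passed in neither (adjusted p of the exact binomial test 0.0702 and 0.84). The other members that passed, all higher in replicate 2, were Gm39214 (0.55), Mir99ahg (0.51), AL805899.2 (0.51), Gm5532 (0.46), Gm43305 (0.38), 9330158H04Rik (0.35), Gm7292 (0.28) and Gm20300 (0.23). Gas5, whose TPM differed, had a log2 ratio of 0.00 in scaled counts (-0.21 to 0.21). Of the 12 snoRNA hosts, 4 had log2 ratios over 0 and 8 under 0, and AI506816 passed. Of the 5 miRNA hosts, Mir99ahg passed. None of the 15 members with a divergent neighbour passed at an adjusted p under 0.05. Beside these counts, 7.8% of nuclear genes with mean counts under 100 passed and 18.8% of those from 100 to 1000, and no difference between these groups of members and other genes was tested.

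**Figure D4:**
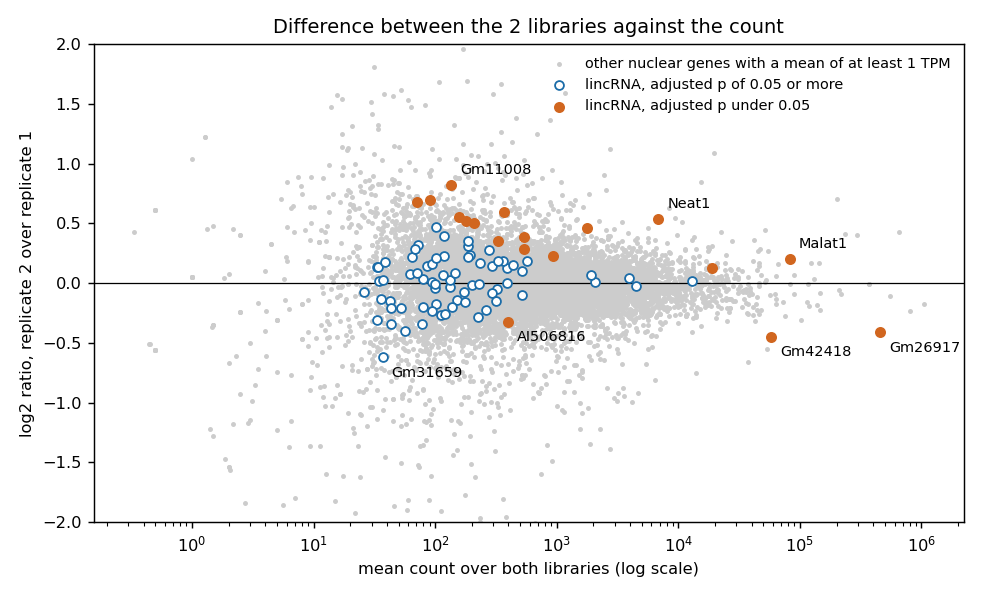
The log2 ratio of replicate 2 over replicate 1 (TMM-scaled counts) against the mean count (log scale) of the 88 expressed lincRNA genes, filled where the adjusted p is under 0.05, over 12034 other nuclear genes in grey, with 52 further genes beyond the drawn range of -2 to 2. The lincRNA genes lie between -0.62 and 0.82, and the 3 filled points below 0 are Gm26917, Gm42418 and AI506816.

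Markers of other cell types also differed between these libraries. Of the lists summed, cardiomyocyte markers stood highest. White adipocyte markers, Adipoq among them, summed to 54.7 TPM in replicate 1 and 11.3 in replicate 2, and all 5 that were tested passed as lower in replicate 2. The 5 atrial markers, which summed to 1371 and 814 TPM, and the 5 erythroid markers, at 10875 and 7045 TPM, were all lower in replicate 2 as well. Of 6 cardiomyocyte markers, at 31770 and 25958 TPM, 5 passed as lower, with log2 ratios of -0.28 to -0.01 over the 6. Macrophage markers summed to 125 and 89.95 TPM, and 5 of 6 passed as lower. Endothelial markers summed to 199 and 197 TPM, and of 6, 3 passed as higher and 2 as lower. Pericyte and smooth muscle markers summed to 300.4 and 269 TPM, with 1 of 6 passing in each direction. Fibroblast markers summed to 527 and 439 TPM, with 3 higher and 3 lower. The 6 lymphocyte markers, at 1.70 and 2.58 TPM, were all under a mean of 1 TPM and were not tested. Among nuclear genes at 2 TPM or more, 44.3% with mean counts of 1000 or more passed, 18.8% from 100 to 1000 and 7.8% under 100. The calls of markers were made with TMM scaling only. The part of the markers in the differences of the members was not tested.

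A second quantification of the same libraries was deposited, and most members had like levels in it. Of the 88, 81 reached 2 TPM in both libraries there too, and 71 were within 2-fold of the first table in both. The same rule applied to the second table took 127 lincRNA genes, so it also took genes that are not members here. Across the members, the tables' levels had a Spearman rho of 0.73 in replicate 1 and in replicate 2, a description over 88 genes from the same reads. The median ratio of the second over the first table was 1.19 in replicate 1 and 1.18 in replicate 2, against 1.12 for protein-coding genes in both. For 41 of 59 members with several transcripts in both tables, the leading transcript was the same.

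The exceptions were large. Gm10076, at 15.9 and 14.2 TPM in the first table, Gm49207, at 12.2 and 13.9, Gm47101, at 5.16 and 4.45, and Gm11008 were listed at 0 in both libraries of the second. All 4 share over 20% of their 100-base stretches with other genes: Gm10076 with Rpl41 (29.6%), Gm49207 with Ahsa1 (71.7%) and Gm47101 with Gm49708 among others (46.6%). AC121821.1 differed the other way, at 3.04 and 2.74 TPM in the first table and 71.8 and 54.0 in the second. Gm20186 was at 4.28 and 3.97 TPM in the first and 65.4 and 43.3 in the second. Gm43305, at 4.82 and 5.45 TPM, was at 22.3 and 23.2 in the second table. The snoRNA hosts Snhg20, at 23.6 and 22.1 TPM there, and Snhg1, at 12.9 and 13.8, were also at least 2-fold higher in both libraries. Gm26722 was at least 2-fold lower, at 3.21 and 3.27 TPM in the first table and 0.922 and 1.28 in the second. Malat1 was at 410 and 425 TPM in the second table, close to 0.5 times its level in the first. Gm26917, at 7039 and 4798 TPM, and Gm42418, at 1921 and 1242, kept the top places.

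**Figure D5:**
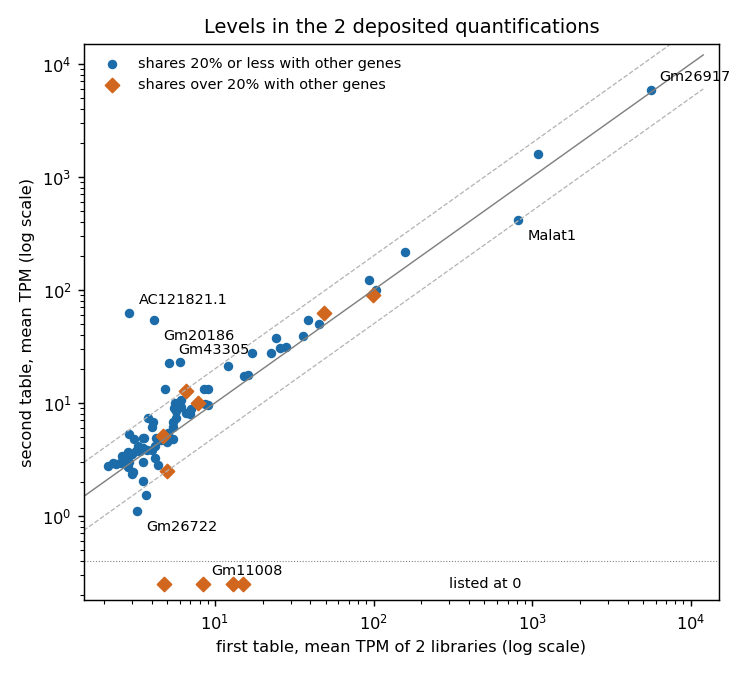
Mean TPM of both libraries in the second deposited quantification against the first (log scales) for the 88 expressed lincRNA genes, with dashed lines at 2-fold. Diamonds are genes that share over 20% of the 100-base stretches of their leading transcript with other genes. Genes listed at 0 in the second table are drawn under the dotted line, and all 4 of them are diamonds.

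Shared sequence was the exception among the members. In 67 members no 100-base stretch of the leading transcript occurred in another gene, and in 10 members over 20% did. Gm49749 lies wholly within Pcnx on the same strand and shares 100% of its stretches with it, so that its level of 4.99 and 5.02 TPM cannot be told apart from that of Pcnx, at 25.6 and 22.8 TPM. 1300002E11Rik shares 23.8% with Map3k13. Counts were whole numbers, to within 0.005, in both libraries for 64 members, and fractional for the others. Whole counts were found for 84.7% of the protein-coding genes at 2 TPM or more.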

How the data were processed

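Per the file headers and labels, the authors deposited, for each of the 2 heart libraries, gene and transcript tables with expected counts and TPM (the first table) and a transcript table with estimated counts and TPM (the second), on mm10 with GENCODE M21. The quantification tools are not given in the sources used here. The first table gives a credibility interval and other score columns that the authors deposited and that are not printed here. The deposited first transcript table also gives isoform percentages, made by the authors. Gene values of the second table are sums over its transcripts, and 86 genes have none. The 96 spike-ins and 26249 other entries (1.94 and 1 counts) were left out of levels and library totals. Positions and transcripts came from GENCODE M21, miRNAs and biotypes from RefSeq (GRCm38.p6).

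Scaling used TMM (edgeR 4.0.16; DESeq2 1.42.0 as alternative). Ratios used a prior count of 2, and intervals are exact 95% binomial ones. The test was checked on simulated counts. Sequence sharing was found by exact match of the 100-base stretches of each member's leading transcript to all M21 transcripts of other genes, on the transcript strand. Other transcripts of a member were not scored. A p here covers counting error between these libraries only, and precision is set by the counts.

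Members and lists were chosen with earlier results of these data known. Genes were named by rule: the 20 highest, members of the lists, the 8 highest and 8 lowest ratios, the largest differences between tables, those at the minimum, small-RNA hosts, and divergent pairs of high level. Genes beside heart genes, and those otherwise marked, were named after their values were seen. Alternatives were another minimum, table, scaling, filter or prior, and, chosen after seeing the data, the share without Gm26917 and Gm42418 and the values without members with shared sequence.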

Additional observations from a re-analysis of the deposited data

How the results depend on the processing

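At minimums of 1 and 5 TPM the members numbered 155 and 38, and with either library alone 97 to 102. The members held a mean of 2.54% of nuclear expected counts, which is another measure than TPM. Their mean share of nuclear TPM was 0.307% without Gm26917 and Gm42418, and ran from 1.19% to 1.52% with either library alone. Under total counts, 7 members were called lower and the median log2 ratio was -0.017. Under ERCC scaling 29 were called, 27 of them higher. The second table called 5 lower, and 1, Gm31659, differed 2-fold there. The gap to the nearest expressed protein-coding gene was 8942 bases. The cause was not tested. Of the 18 called members, 12 kept their call and direction under each alternative run. Calls were lost for 9330158H04Rik, Gm20300 and Gm7292 under total counts, AI506816 under ERCC scaling, and AI506816, Gm35330 and Gm11008 (listed at 0) in the second table. No called member reversed. Against the first table, 54 levels of the second were higher and 14 lower by 1 SD or more. Under the other settings, counts stayed within 1.5 times. No paired analysis was possible because both libraries belong to 1 group. Low members rest on few counts: 29 had mean counts under 100.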
